A study of Rattus norvegicus with 61 samples.

Results

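The proteasome genes described here are all genes of the striatal and cerebellar count tables whose symbol begins with Psma, Psmb, Psmc, Psmd, Psme, Psmf or Psmg followed by a number, pseudogenes left out. The rule found 48 genes, each present in both tables, out of 14231 genes in the striatal table and 14129 in the cerebellar table. Of the 48, 45 encode a subunit, activator, inhibitor or assembly factor of the proteasome. The others are Psmc3ip, whose product works in meiotic recombination, Psme3ip1, whose product binds an activator, and Psmb6l1, a copy of Psmb6. No row for Psma8, Psmb6 or Psmg3 was analysed here.

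The rats were male Sprague-Dawley animals, and each carried a polymer implant under the skin of the back for 28 days from postnatal day 28. The test compound was 4-OH-PCB52, which forms when a polychlorinated biphenyl is hydroxylated in the body. Sham implants held 0% of it, low ones 1%, medium ones 5% and high ones 10%, so the controls also carried an implant. In striatum there were 8 sham, 6 low, 8 medium and 8 high libraries, and in cerebellum 7 sham and 8 of each loading. The RNA came from tissue punches, which mix neurons, glia and vessels, and in such bulk tissue fewer cells of a type and less RNA per cell cannot be told apart. Libraries are named below by group and animal number.

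The proteasome degrades proteins tagged with ubiquitin. Its core particle is a stack of rings in which alpha subunits form the gate and beta subunits carry the catalytic sites, and a regulatory particle with a base of ATPases and further non-ATPase subunits binds, unfolds and feeds in the substrates. Under interferon the catalytic subunits Psmb5, Psmb6 and Psmb7 can be replaced by Psmb8, Psmb9 and Psmb10, which gives the immunoproteasome, and the activator PA28 (Psme1 and Psme2) then serves the supply of peptides for MHC class I. In the brain the induced subunits are known chiefly from immune cells such as microglia.

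The promoters of 3 members are shown. Psmb5 stands for the standard core and Psmb8 for the induced core. Psme4 stands for a member that went the opposite way to both across the libraries. The promoters are RefSeq windows of 250 bases before and 50 bases after the annotated start on the GRCr8 build, read 5′ to 3′ on the gene's strand. They lie at chr15:32047330-32047629 (Psmb5, minus strand), chr20:4656982-4657281 (Psmb8, minus strand) and chr14:108706393-108706692 (Psme4, plus strand). Capitals mark matches, on either strand, to an antioxidant response element (TGACNNNGC), an interferon-stimulated response element (GAAA, any 2 bases, GAAA) or an interferon-gamma activated site (TTCNNNGAA).
Psmb5: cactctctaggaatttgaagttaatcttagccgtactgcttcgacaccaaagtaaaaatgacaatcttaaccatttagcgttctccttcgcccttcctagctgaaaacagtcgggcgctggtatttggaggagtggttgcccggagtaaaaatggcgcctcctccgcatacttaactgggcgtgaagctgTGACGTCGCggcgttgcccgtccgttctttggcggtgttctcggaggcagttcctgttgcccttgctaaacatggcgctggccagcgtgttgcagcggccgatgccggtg
Psmb8: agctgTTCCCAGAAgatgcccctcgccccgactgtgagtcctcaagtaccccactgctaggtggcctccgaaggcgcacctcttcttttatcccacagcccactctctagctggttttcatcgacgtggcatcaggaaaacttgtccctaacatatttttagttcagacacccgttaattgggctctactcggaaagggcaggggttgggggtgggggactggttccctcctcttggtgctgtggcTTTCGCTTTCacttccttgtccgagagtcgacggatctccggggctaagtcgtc
Psme4: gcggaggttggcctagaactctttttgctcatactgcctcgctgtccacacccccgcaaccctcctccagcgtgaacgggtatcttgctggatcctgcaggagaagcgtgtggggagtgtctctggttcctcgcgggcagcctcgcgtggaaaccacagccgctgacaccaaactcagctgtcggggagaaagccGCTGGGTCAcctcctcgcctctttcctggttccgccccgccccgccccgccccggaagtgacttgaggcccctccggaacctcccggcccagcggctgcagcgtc

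The capitals in Psmb5 and Psme4 are antioxidant response element matches, and Psmb8 holds an interferon-gamma activated site match near the far end and an interferon-stimulated response element match at the start. The windows of Psmb9, Psme1 and Psmd11 were read as well and held 0 matches to any of the 3 motifs. The letters are thus absent from the window of Psmb9, an induced subunit. The Psme1 window ends in tttcgctt, the letters that begin the interferon-stimulated response element match of Psmb8. A match running past its end could not be read. Promoters of 43 of the 48 members were matched by NCBI Gene ID. The interferon-stimulated response element letters occurred in 7 of them (16.3%), against 3.77% of all 27457 promoters: Psma4, Psmb3, Psmb8, Psmb10, Psmd7, Psme2 and Psmg4. The antioxidant response element letters also occurred in 7 (16.3%), against 12.2%, and the interferon-gamma activated site letters in 4 (9.30%), against 8.68%. The motifs can overlap one another, and a match says only that the letters are there. In the gene order of the reference, Psmb8 lies between the peptide transporter genes Tap2 and Tap1, and Psmb9 follows Tap1.

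Striatal libraries held 5850199 to 10944066 counted reads and cerebellar ones 5420458 to 10994625. In sham rats all 16 striatal projection neuron markers were higher in striatum (median log2 fold change 6.33) and all 12 cerebellar granule cell markers were lower (median -4.54), each past the adjusted threshold of 0.05 in edgeR. The library labelled cerebellum low 22 went against its label, with a granule cell mean of 3.79 log2 CPM (reads scaled to a common library total) where the next lowest library had 6.83. The striatal libraries sham 17, low 20 and high 13 had projection neuron means of 4.80, 5.36 and 5.57, where the next lowest had 7.80. In all, 8 of 30 striatal and 10 of 31 cerebellar libraries stood more than 1 log2 unit from their region's median on ribosomal protein genes or on the region's own neuron genes, and results are given with and without them.

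The members together took 0.346 to 0.508% of reads in sham striatum (median 0.394%, n = 8) and 0.355 to 0.715% in sham cerebellum (median 0.403%, n = 7). In cerebellum the medians were 0.375% for low, 0.474% for medium and 0.376% for high (n = 8 each), and in striatum 0.358, 0.367 and 0.361%. The groups overlapped throughout. Single libraries stood far above them: cerebellum high 43 (0.895%), high 59 (0.83%), high 28 (0.820%), medium 24 (0.772%) and sham 48 (0.715%). In striatum the highest were medium 41 (0.604%) and high 28 (0.574%).

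**Figure D1:**
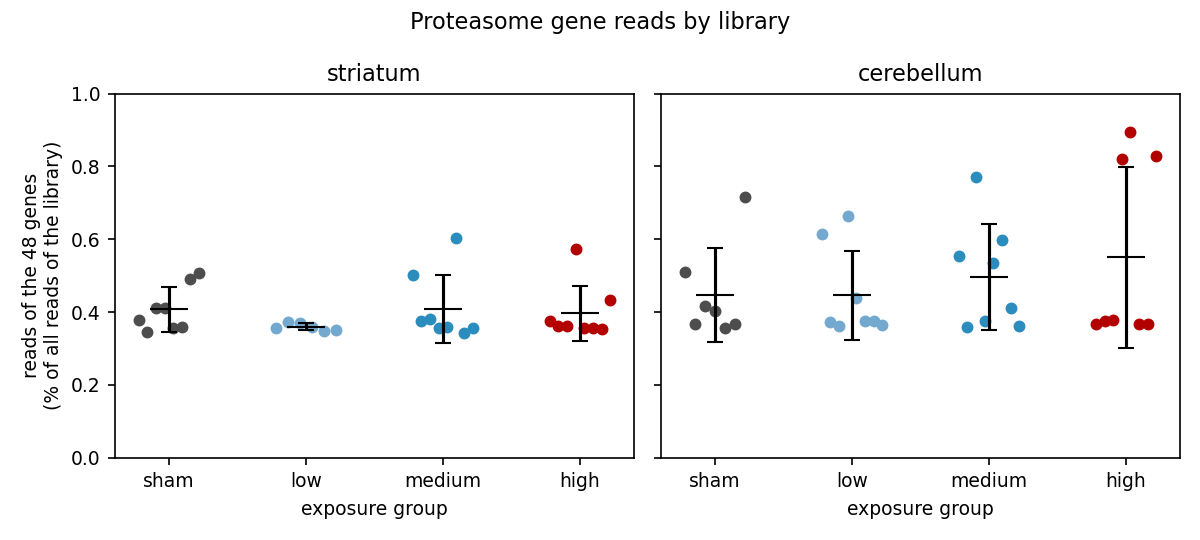
Reads of the 48 genes as a percent of all reads of a library (y axis) by exposure group (x axis) in striatum and cerebellum. Points are libraries and bars the mean ± SD. In the cerebellar high group 3 libraries lie between 0.820 and 0.895% and the others near 0.376%.

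No member passed the test of a loading against sham in either region. In each of the 6 comparisons of a loading with sham, 0 of 46 (striatum) or 47 (cerebellum) tested members passed edgeR's quasi-likelihood test at an adjusted p of 0.05, and percent called over all genes was 0 in each. DESeq2 and limma-voom also called 0 members in these 6. At an unadjusted p under 0.05 edgeR gave 15 of 47 members for cerebellum high, beside 11.7% of all 11946 genes tested. It gave 0 members for striatum low, medium and high, where 3.84, 3.69 and 1.15% of all genes fell under it, and 0 for cerebellum low and medium, where 1.52 and 1.42% did. The comparisons within a region share its sham libraries.

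In striatum the fold changes were small. For low loading the members' median log2 fold change was -0.17 (3 higher, 43 lower), beside 0 for all genes tested, of which 49.8% were higher. It was 0.06 for medium (40 higher, 6 lower) and 0.01 for high (27 higher, 19 lower). All genes had a median of 0.02 in both, with 54.8 and 56.7% higher. Without the libraries standing apart, the medians were -0.12, -0.10 and -0.06, so the sign turned for medium and high. The test of any exposure called 0 members at 0.0245% of all genes, and 0 at an unadjusted p under 0.05, beside 2.02%. The trend with percent loading also called 0 members, where percent called was 0.

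The standard catalytic subunit Psmb5 (NCBI Gene ID 29425), which carries the chymotrypsin-like activity, ran from 86.4 to 180 CPM in sham striatum (median 102) and from 84.1 to 244 CPM at high loading (median 91.6). The high group overlapped the sham group, and its top value belonged to high 28. The non-ATPase subunit Psmd11 (303353), which helps join the core and regulatory particles, varied less, from 89.4 to 96.9 CPM in sham striatum (median 92.7) and from 84.8 to 97.3 CPM at high loading (median 92.5).

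In cerebellum the members' median log2 fold change was -0.12 for low loading (10 higher, 37 lower), 0.12 for medium (40 higher, 7 lower) and 0.54 for high (42 higher, 5 lower). All genes had medians of -0.03, 0 and -0.03, with 43.6, 49.7 and 47.3% of them higher. The high value depended on the libraries standing apart: without them, high 28, 43 and 59 included, it turned to -0.16, with 4 members higher and 42 lower. It was 0.24 without high 43 alone and 0.83 without sham 48 alone. With library means of ribosomal and neuron genes as covariates it was -0.02, and with limma-voom's sample weights -0.06. Scaling by library totals in place of TMM gave 0.20, beside -0.16 for all genes. The low and medium medians also changed sign when 1 library was left out: 0.13 for low without sham 48 and -0.06 for medium without medium 24.

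**Figure D2:**
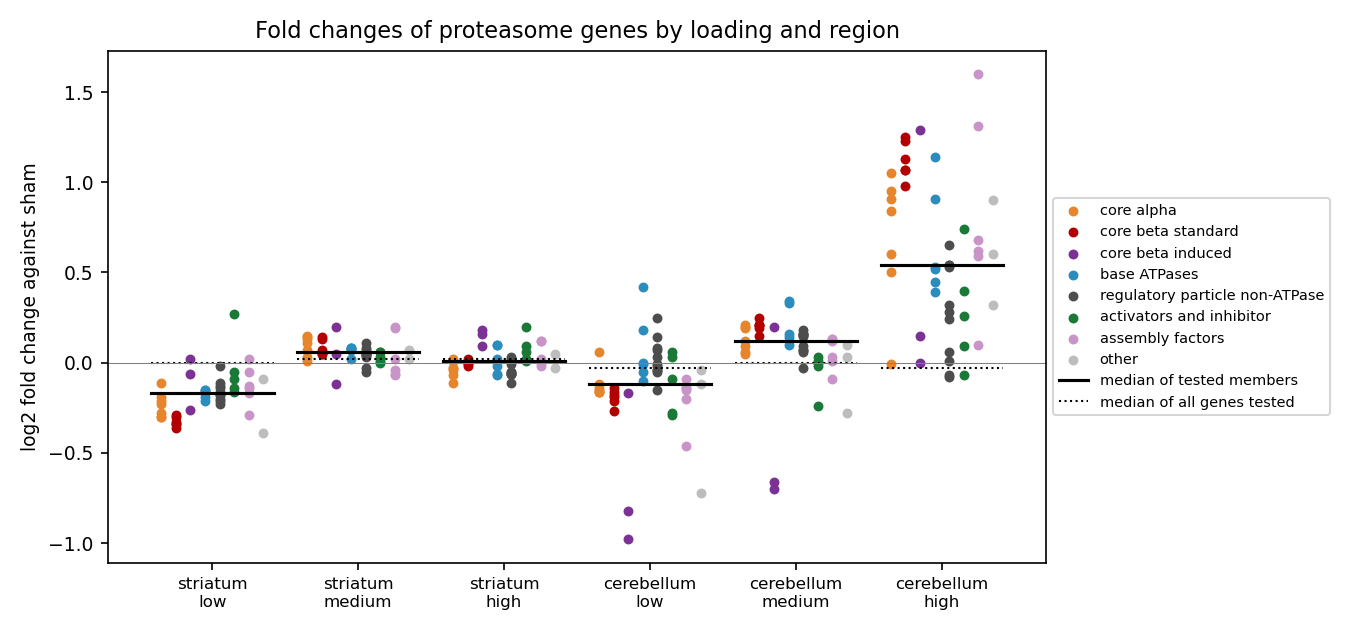
Log2 fold change of each tested member against sham (y axis) in 6 comparisons (x axis), coloured by role, with the medians of the members (solid) and of all genes tested (dotted). The cerebellar high comparison has a member median of 0.54 and the widest spread, from -0.08 to 1.60, and no point passed the adjusted threshold.

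By role, the highest median log2 fold change at high loading in cerebellum was that of the standard beta subunits, 1.10, with all 6 between 0.98 and 1.25. Single members of other roles lay above them: Psmg4 (1.60), Psmg1 (1.31) and Psmb10 (1.29). Alpha subunits had a median of 0.84 (6 of 7 above 0), assembly factors 0.65 (6 of 6), base ATPases 0.52 (6 of 6), non-ATPase subunits 0.28 (9 of 11) activators with the inhibitor 0.26 (4 of 5) and the 3 tested induced subunits 0.15. The low place of the induced subunits depended on sham 48. Without it Psmb8, Psmb9 and Psmb10 had 1.59, 1.41 and 1.88, beside 1.71 for Psmb5 and 1.36 for Psmb7. None of the members passed the test, and the differences between roles were not tested.

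The assembly chaperones Psmg4 (689623) and Psmg1 (288236), which help build the alpha ring, had the smallest p values at high loading. Psmg4 stood between 14 and 73.5 CPM in sham cerebellum (median 16.9) and between 9.75 and 288 CPM at high loading (median 12.8). In high 43, 28 and 59 it was at 288, 127 and 112 CPM, and in the other high libraries it was at or below 13 CPM, under every sham library. The TMM factors of high 43, 28 and 59 were 0.52, 0.73 and 0.79, where the cerebellar sham median was 1.04. A lower factor raises every CPM of a library. The log2 fold change of Psmg4 was 1.60 ± 0.65 (SE; edgeR adjusted p = 0.417) and that of Psmg1 was 1.31 ± 0.52 (adjusted p = 0.417). Without the libraries standing apart these were -0.44 and -0.28.

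Psmb5 showed the same division. It was 74.8 to 391 CPM in sham cerebellum (median 97.7) and 77.6 to 1080 CPM at high loading (median 85.6), with 1080, 596 and 542 CPM in high 43, 28 and 59. The other high libraries lay within the sham range. The log2 fold change was 1.23 ± 0.58 (edgeR adjusted p = 0.42), and it was -0.28 without the libraries standing apart.

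The base ATPases, the motor that unfolds substrates, gave 2 members with an unadjusted p under 0.05 at high loading. Psmc5 (81827) was 124 to 334 CPM in sham cerebellum (median 140) and 120 to 1060 CPM at high loading (median 132). Psmc1 (117263) was 142 to 320 CPM in sham (median 174) and 145 to 931 CPM at high loading (median 167). The high medians thus lay below the sham medians while the fitted log2 fold changes were 1.14 ± 0.52 and 0.91 ± 0.40 (edgeR adjusted p = 0.417 for each).

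The ubiquitin receptor Psmd4 (83499) was 81.6 to 210 CPM in sham cerebellum (median 104) and 86.3 to 420 CPM at high loading (median 94.2). The deubiquitinase Psmd14 (311078), which strips ubiquitin chains before degradation, was 53 to 92.9 CPM in sham (median 65.3) and 57.4 to 153 CPM at high loading (median 62.9). The groups overlapped for both, with log2 fold changes of 0.65 ± 0.36 and 0.24 ± 0.21 (edgeR adjusted p = 0.464 and 0.706). The inhibitor Psmf1 and the nuclear activator subunit Psme3 had 0.09 ± 0.22 and 0.26 ± 0.14 (adjusted p = 0.892 and 0.452).

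Among the induced subunits, Psmb10 (291983), the counterpart of Psmb7, was 15.2 to 88.9 CPM in sham cerebellum (median 19.0) and 15.8 to 246 CPM at high loading (median 18.2). Its log2 fold change was 1.29 ± 0.58 (edgeR adjusted p = 0.417). Psmb8 had 0.15 ± 0.80 (adjusted p = 0.945) and Psmb9 0.00 ± 0.72 (adjusted p = 1). At low loading Psmb8 had -0.82 ± 0.80 and Psmb9 -0.98 ± 0.75, and at medium loading -0.70 ± 0.80 and -0.66 ± 0.74, each with an edgeR adjusted p of 0.999 or 1. These signs depended on sham 48. Without it Psmb8 and Psmb9 had 0.64 and 0.44 at low, 0.77 and 0.78 at medium and 1.59 and 1.41 at high loading. At high loading Psmb8 had -0.21 without high 43, and Psmb9 had -0.38 without high 59. No member was called in these fits. The thymus subunit Psmb11 was at most 0.763 CPM in any cerebellar library and 2.63 CPM in any striatal one. It failed the filter on low counts in both regions and was not tested.

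The linear trend with percent loading in cerebellum called 0 members in edgeR, where percent called was also 0. At an unadjusted p under 0.05 it gave 28 of 47, beside 20.6% of all genes, and the smallest adjusted p was 0.0755, for Psmg4 and Psmg1. The slope for Psmg4 was 0.18 ± 0.05 log2 units per percent loading. DESeq2 called 10 of the 42 members it gave an adjusted p, beside 9.83% of 9166 such genes. With 1 library left out, edgeR called 18 of 47 members without sham 48, beside 13.7% of all genes. It called 12 without high 13 (8.9% of all genes), 10 without high 14 (8.09%), 10 without high 58 (8.34%), 9 without high 44 (8.31%) and 8 without high 27 (7.43%). Without the libraries standing apart the members' median slope went from 0.06 to -0.01. The test of any exposure in cerebellum called 0 members, where percent called was 0, with 8 at an unadjusted p under 0.05 beside 10.3% of all genes.

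The difference between regions in the change at high loading, striatum minus cerebellum, called 0 of 47 members, beside 0.00793% of all genes. The members' median was -0.57 (6 above 0, 41 below, where 50.1% of all genes were above 0), with 9 at an unadjusted p under 0.05 beside 8.05% of all genes. With a block for the animal it was -0.31, and without the libraries standing apart it turned to 0.11.

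Across libraries the members went with ribosomal protein transcripts. In cerebellum 10 of 31 libraries had a ribosomal mean more than 1 log2 unit above the region's median: sham 48, low 6 and 22, medium 8, 24, 40 and 41, and high 28, 43 and 59. In these 10, 23 of 47 tested members lay above every one of the other 21 libraries and 0 lay below all of them, where 11.1% of all genes lay above and 12.3% below. The 23 include all 6 standard beta subunits, 4 of the base ATPases and 2 of the alpha subunits, Psma2 and Psma5. In striatum 4 of 30 libraries (sham 49, medium 8 and 41, high 28) had such a ribosomal mean, and 21 of 46 members lay above all the other 26 libraries, beside 8.35% of all genes. These counts describe sets of libraries picked by ribosomal transcripts, not by exposure, and carry no test. Whether RNA quality, the way messenger RNA was enriched or the cells in the punch set this pattern was not tested.

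**Figure D3:**
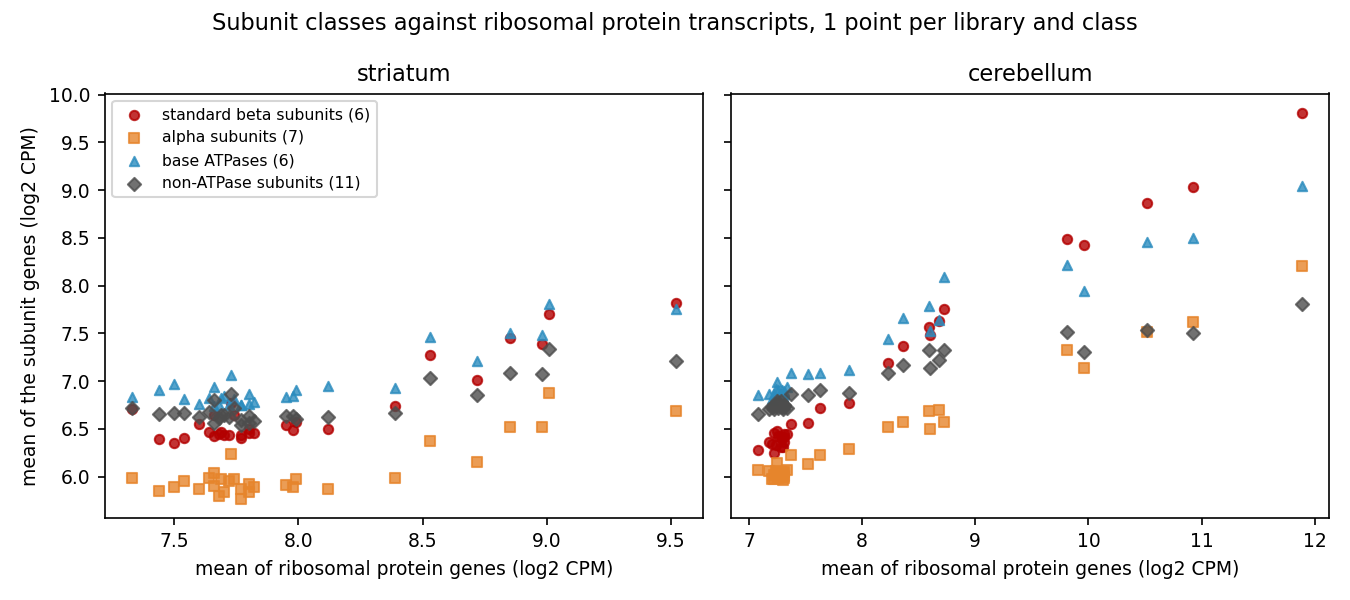
Mean log2 CPM of 4 subunit classes (y axis) against the mean log2 CPM of ribosomal protein genes (x axis), 1 point per library and class, for striatum and cerebellum. In cerebellum the standard beta subunits climb from about the level of the other libraries to 9.81 log2 CPM in high 43, while the non-ATPase subunits reach 7.81.

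The members did not move by the same amount. In high 43, the library with the highest ribosomal mean (11.89 log2 CPM), the standard beta subunits lay 2.91 to 3.47 log2 units above the cerebellar sham median (median 3.29). Alpha subunits had a median of 2.40, assembly factors 2.10, base ATPases 1.79 and non-ATPase subunits 1.16. Thus 38 of 48 members lay more than 1 log2 unit above the sham median in that library and 5 lay below it. The share of all genes past that mark was not counted. The TMM factor of high 43 was 0.52, where the sham median was 1.04, and a lower factor raises every CPM of a library. By share of reads, the members took 0.895% in high 43, where the sham median was 0.403%. In sham 48 the order of the standard beta (1.92), alpha (1.24), ATPase (0.86) and non-ATPase (0.55) medians was the same.

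Psme4 (498433), which encodes the activator PA200, went the opposite way. In the 10 cerebellar libraries with raised ribosomal transcripts it stood at 17.8 to 64.4 CPM (median 37.1), and in the other 21 at 63.1 to 145 CPM (median 131). The sets overlapped between 63.1 and 64.4 CPM. In striatum it was 48.2 to 69.1 CPM in the 4 raised libraries and 72.1 to 160 CPM in the other 26, and it was the only member below all of them, beside 5.18% of all genes.

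Psmb5 lay at 187 to 1080 CPM in the 10 cerebellar libraries (median 321) and at 68.6 to 158 CPM in the other 21 (median 82.4), a ratio of medians of 3.90. Its partners in the beta ring had ratios of 2.92 (Psmb3) to 3.61 (Psmb4). Several subunits of the regulatory particle moved less, with ratios of 1.23 for Psmd2, a scaffold subunit of the base, 0.920 for Psmd1 and 0.845 for Psmd11. Psma3 (29670), an alpha subunit, also went down, to a ratio of 0.722, while the other alpha subunits had ratios of 1.84 (Psma1) to 2.62 (Psma6).

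The other 2 cerebellar high libraries with raised ribosomal transcripts had the same order. In high 28 the medians above sham were 2.51 for standard beta, 1.67 for alpha, 1.30 for ATPase and 0.80 for non-ATPase subunits, and in high 59 they were 2.37, 1.76, 1.32 and 0.77. In striatum high 28, where all shifts were smaller, they were 1.13, 0.69, 0.79 and 0.46, so there the ATPases lay above the alpha subunits. Over the 4 raised striatal libraries the ratio of medians was 1.97 (Psmb7) to 2.39 (Psmb4) for standard beta subunits, 1.04 for Psmd11, 1.09 for Psmd1, 0.948 for Psma3 and 0.461 for Psme4. The tested induced subunits had ratios of 2.04 (Psmb9), 2.09 (Psmb8) and 2.29 (Psmb10) there.

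The share of reads in the members could be followed by animal number where both punches were sequenced, taking each number as 1 rat. It was high in both regions of rat 28 (0.574% in striatum, 0.820% in cerebellum), rat 41 (0.604 and 0.598%), rat 8 (0.503 and 0.554%) and rat 48 (0.491 and 0.715%). In rat 43 it was 0.355% in striatum and 0.895% in cerebellum, and in rat 24 it was 0.382 and 0.772%. A high share in one region therefore went with a high share in the other in some rats and not in others.

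The induced subunits were high in cerebellum sham 48, as they were in high 43, 28 and 59. Their mean was 3.65 log2 CPM in sham 48 and 3.54, 3.27 and 3.24 in the high libraries. Psmb8 (24968) was at 28.2 CPM in sham 48, the highest of all 61 libraries, where the sham median was 1.67 CPM. Psmb9 (24967) was at 37.2 CPM, also the highest, where the sham median was 2.31 CPM, and Psme1 (29630) at 151 CPM, where it was 22.2 CPM. Psmb10 was at 88.9 CPM in sham 48 and higher, at 246 CPM, in high 43. Relative to the sham median Psmb8, Psmb9 and Psme1 lay 3.88, 3.86 and 2.75 log2 units higher, more than any standard beta subunit in that library (at most 2.06). The same library had the highest MHC class I mean (6.25 log2 CPM) and interferon mean (3.80) of all libraries and high microglial (5.42) and blood (6.00) means for cerebellum. Its B2m, the light chain of MHC class I, was at 1370 CPM where the sham median was 268 CPM, and the highest cerebellar library at high loading had 1580 CPM. The part of these cells in the result was not tested.

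**Figure D4:**
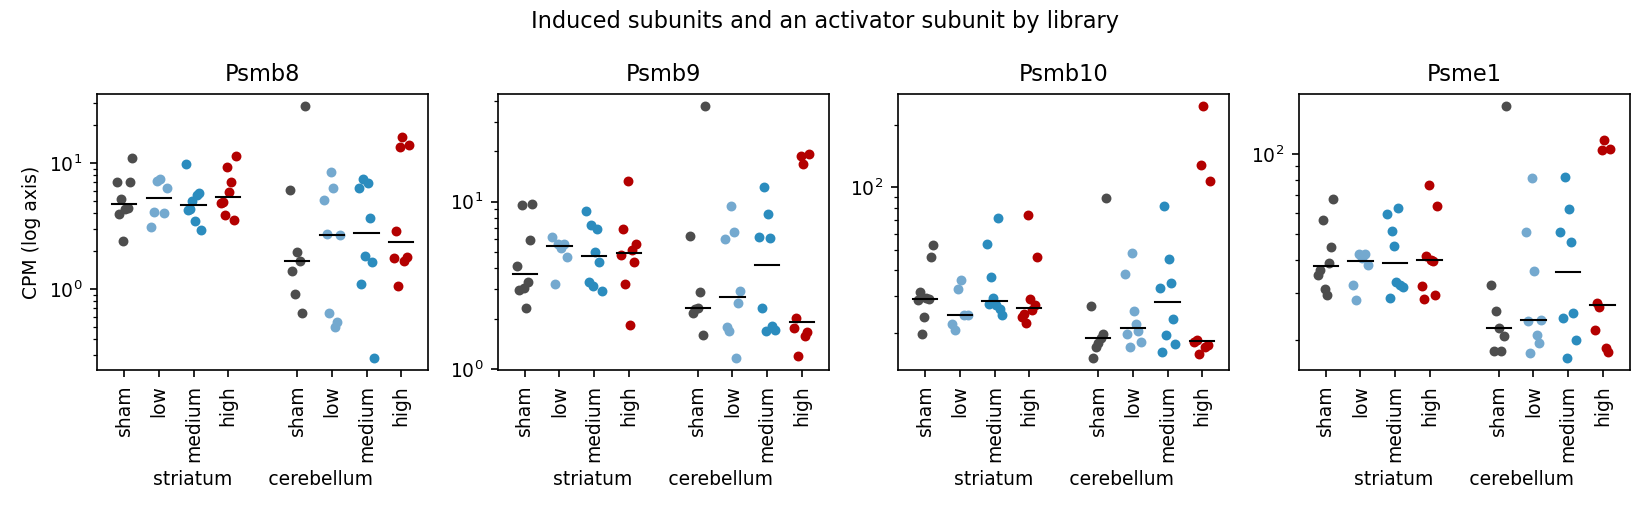
CPM (y axis, log scale) of Psmb8, Psmb9, Psmb10 and Psme1 in every library by exposure group and region (x axis), with group medians as bars. Cerebellum sham 48 is the highest point for Psmb8 (28.2 CPM), Psmb9 (37.2 CPM) and Psme1 (151 CPM), and high 43 is the highest for Psmb10 (246 CPM).

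The balance of induced to standard catalytic subunits was followed within each library as reads of one per 100 reads of the other, with no correction for transcript length. For Psmb8 against Psmb5 it was 2.35 to 7.00 in sham striatum (median 4.66) and 0.71 to 7.21 in sham cerebellum (median 2). At high loading it was 3.82 to 8.45 in striatum (median 5.48) and 1.19 to 3.55 in cerebellum (median 2.21). The high groups overlapped the sham groups in both regions. For Psmb10 against Psmb7 the sham values were 10.6 to 19.9 in striatum (median 17.4) and 9.67 to 15.7 in cerebellum (median 10.3), with high medians of 16.2 and 12.6.

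Between the regions of sham rats, 5 of 46 tested members passed (edgeR), beside 42.5% of all 11920 genes. The one called higher in striatum (21% of all genes were) was Psmd1, and the 4 called lower (21.5%) were Psmd9, Psmd5, Psmd11 and Psma3. The members' median log2 fold change, striatum over cerebellum, was -0.24, beside -0.09 for all genes. With a block for the animal, 9 of 46 members passed, beside 46.9% of all genes, and all 9 were lower in striatum: Psmf1, Psmd5, Psmd9, Psmg1, Psmg2, Psmc4, Psma1, Psma4 and Psmd11. Psmd1 (adjusted p = 0.0943) and Psma3 (adjusted p = 0.104) then did not.

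**Figure D5:**
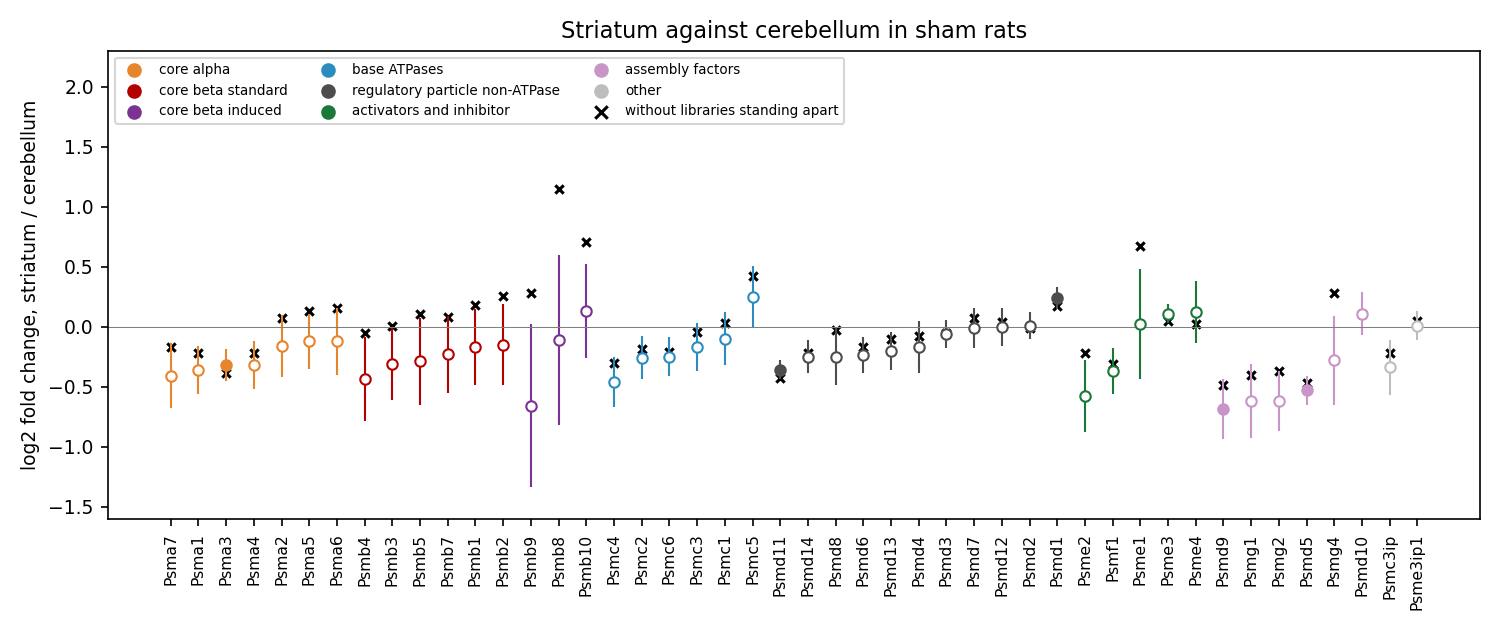
Log2 fold change of each tested member between sham striatum and sham cerebellum (y axis; circles with SE, filled where the adjusted p was under 0.05) by gene and role (x axis). Crosses give the value without libraries standing apart, where Psmb8 reaches 1.15, Psmb10 0.71 and Psme1 0.67.

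Psmd5 (296651), a chaperone of the base ATPases, was 28.9 to 38.5 CPM in sham striatum (median 34.2) and 42 to 61.6 CPM in sham cerebellum (median 46.1). The regions did not overlap. The log2 fold change was -0.53 ± 0.12 (edgeR adjusted p = 0.00186). Psmd9 (161475), another chaperone of the base, was 21.9 to 41.3 CPM in striatum (median 24) and 29.3 to 90 CPM in cerebellum (median 37.6), with overlap, and its log2 fold change was -0.69 ± 0.25 (adjusted p = 0.0358).

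Psmd11, at 89.4 to 96.9 CPM in striatum, was 98.1 to 137 CPM in cerebellum (median 124), also without overlap. Its log2 fold change was -0.36 ± 0.08 (edgeR adjusted p = 0.00157). Psma3 was 18.8 to 25.1 CPM in striatum (median 20.1) and 15.9 to 30.5 CPM in cerebellum (median 28.3), with its lowest cerebellar value in sham 48. Psmd1 (83806), the largest scaffold subunit of the base, was 160 to 185 CPM in striatum (median 169) and 112 to 162 CPM in cerebellum (median 153). Their log2 fold changes were -0.32 ± 0.13 (adjusted p = 0.0484) and 0.24 ± 0.09 (adjusted p = 0.0455). Without the libraries standing apart Psmd5 (-0.47), Psmd11 (-0.43), Psmd9 (-0.49) and Psma3 (-0.39) also passed, and Psmd1 did not (0.17, adjusted p = 0.0699).

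With 1 sham library left out at a time, 2 to 8 of 46 members passed, beside 38.6 to 59% of all genes, and Psmd5 and Psmd11 passed in 15 of 15 fits. Psmd9 was lost in 6 of 15: without striatal sham 1, 3, 18, 32 or 34 or cerebellar sham 1. Psmd1 was lost in 12 and Psma3 in 13 of the 15, so their calls were close to the threshold. Only 2 members passed without striatal sham 1 or 32, and 3 passed without striatal sham 3, 17, 18 or 34 or cerebellar sham 1, 3 or 17.

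The regional difference of Psmb8, Psmb10 and the activator subunit Psme1 depended in edgeR on cerebellum sham 48, and it depended on the tool. With all sham libraries, Psmb8 had a log2 fold change of -0.11 ± 0.71, Psmb10 0.13 ± 0.39 and Psme1 0.02 ± 0.46 in edgeR, none past its test. On the same libraries DESeq2 called all 3 higher in striatum (1.26, 0.71 and 0.84), as did limma-voom with sample weights (1.93, 0.76 and 0.84). Those fits called 9 and 20 members, beside 48.3 and 71.4% of all genes. DESeq2 was run with its default handling of outlying counts, and sample weights let limma-voom give outlying libraries less weight. How far each fit discounted sham 48 was not examined. The dependence on the tool was therefore not told apart from that on sham 48. Without sham 48 of the cerebellum the edgeR values were 1.38, 0.76 and 0.90, past the adjusted threshold, and 8 of 46 members passed, beside 59% of all genes. Without all libraries standing apart they were 1.15, 0.71 and 0.67, and 10 members passed, beside 59.4% of all genes, among them also Psmc5 (0.42), Psmf1 (-0.31) and Psmg2 (-0.37). Microglial markers were higher in sham striatum for 13 of 13 genes (median 1.34). With all libraries 8 of them passed the threshold, beside 21% of all genes called higher in striatum. The part of microglia in the regional difference was not tested.

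Outside the 48 genes, 23 of 26 listed genes of the wider pathway and 9 of 10 of MHC class I presentation were tested. None passed in any comparison of a loading with sham. At high loading in cerebellum the core maturation factor Pomp had a log2 fold change of 1.71 ± 0.69 and the lid subunit Sem1 one of 1.66 ± 0.63, each with an edgeR adjusted p of 0.417. Pomp was 84.2 to 520 CPM in sham cerebellum (median 127) and 75.5 to 2170 CPM at high loading (median 93.6), so most high libraries lay low here as well.

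Between regions 6 of the 23 wider pathway genes passed, beside 42.5% of all genes. In striatum 2 were higher, beside 21% of all genes, and 4 were lower, beside 21.5%. Usp14, a deubiquitinase of the regulatory particle, was higher (0.50 ± 0.12, edgeR adjusted p = 0.00239), and Uchl5, another one, was lower (-0.67 ± 0.16, adjusted p = 0.00228). Of the 9 MHC class I genes, Tap2 (-0.99 ± 0.18, adjusted p = 0.000338) and Irf1 (-0.83 ± 0.25, adjusted p = 0.0148) were lower in striatum. Over all genes 21.5% were called lower. Tap2 was 13.4 to 33.3 CPM in striatum and 35.1 to 53 CPM in cerebellum, without overlap, while its neighbour Psmb8 did not pass in edgeR with all libraries.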

How the data were processed

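RNA-seq libraries of striatal (30) and cerebellar (31) punches were analysed from the whole-number read counts per gene that the authors deposited, 1 table per region. The submitters' processing notes name rn6, HISAT2 and FastQC, without versions. Which counter, annotation and strand setting they used is not given in the sources used here. So reads of overlapping genes or of near-identical copies such as Psmb6l1 may be shared. Enrichment was by poly(A) capture or by ribosomal RNA removal, per the labels' protocols, which do not say which library had which. Symbols came from RefSeq by NCBI Gene ID (14163 of 14231 and 14063 of 14129 matched), and no gene had under 10 reads over a region.

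Counts were scaled by TMM, filtered with filterByExpr and fitted per region with 4 exposure groups in edgeR 4.0.16 (robust quasi-likelihood, R 4.3.3), with Benjamini-Hochberg adjustment over all genes tested and a two-sided threshold of 0.05. SE is the fold change divided by the root of F. The sham regions were compared over genes in both tables, and the regional difference in the high effect over all 61 libraries. CPM use TMM factors of all libraries together, and log2 CPM a prior count of 2. The depth limits members of a few CPM, such as Psmb8. The labels do not say that replicates came from separate litters, or which of the 4 cohorts a rat belonged to.

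Members, lists and tests were chosen with earlier results of these data known. Any member could be named by role. By rule, members past the threshold, or else the 3 per direction with the smallest p, were named for each comparison, with Psmb5, Psmb7 to Psmb10, Psme1 and Psme2. The animal number was taken to pair the regions: 29 numbers occurred in both. Deviations under the same number correlated at a median r of 0.37 (-0.27 to 0.84). Different animals were not correlated, so these values do not test the pairing. Alternatives were RLE factors, DESeq2 1.42.0, limma-voom 3.58.1 with sample weights, no filter, a mean CPM of at least 1, runs of 15 animal numbers or the animal as block, only the compared groups, leaving out animal 17, libraries standing apart or each library, and list means as covariates. Scaling by library totals was added after seeing the data. The code was tested on simulated data.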

Additional observations from a re-analysis of the deposited data

Results flagged for a closer look

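Of 64 values of a group examined for 1 library far from the rest, 7 were picked out. Chance gives about 1 in 20 for independent values. The 64 share libraries and are not independent, so the 7 cannot be set against that rate. Dixon's ratio of the gap to the range was used, in groups of 6 to 8 libraries. Of the 7 picked out, 5 were cerebellum sham 48. Its mean over the 48 genes was 6.67 log2 CPM, where the next sham library had 5.94. It was also far above the next sham library for Psmb9 (5.23 against 2.70 log2 CPM), Psmb10 (6.48 against 4.77), Psme1 (7.25 against 5.02) and Psme2 (6.88 against 5.34). The other 2 were striatum high 28, with a mean over the 48 genes of 6.33 log2 CPM where the next high library had 5.85, and its Psmb7, at 8.61 log2 CPM against 7.74.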

How the results depend on the processing

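No exposure comparison with sham called a member under any alternative run. The cerebellar trend called 10 members with DESeq2, beside 9.83% of all genes, and 0 to 18 with 1 library left out, beside 0 to 13.7% (18 without sham 48). The sham regions gave 5 members, beside 42.5% of all genes. DESeq2 gave 9 (48.3%), limma-voom 20 (71.4%), the fit without animal 17 gave 3 (38.8%), that without libraries standing apart 10 (59.4%), the replicate block for the animal 9 (46.9%), and leaving out 1 library 2 to 8 (38.6 to 59%). The block changed no other call. Its median of -0.24 was 0.03 with limma-voom and -0.29 to 0.03 with 1 library left out. The median at high loading in cerebellum went from 0.54 to -0.06 (limma-voom), -0.02 (covariates) and -0.16 (libraries standing apart left out). The regional difference at high loading had a median of -0.31 with the animal block, 0 with limma-voom and 0.11 with those libraries left out.

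A named gene was taken as turned where its sign changed and either value was called or both exceeded their SE. This held for 29 of 3936 values, and in 306 others the sign changed within the error. At high loading in cerebellum, values without libraries standing apart were -0.28 for Psmg1, -0.44 for Psmg4, -0.14 for Psmb10, -0.28 for Psmb5, -0.24 for Psmb7 and -0.16 for Psme2. Psmg4 had -0.39 with limma-voom and Psme2 -0.09 with covariates. For the trend, values without those libraries were -0.04 for Psmg4, -0.02 for Psmg1, Psmb10, Psmb5 and Psmb7 and -0.01 for Psme2. With limma-voom Psmg4 had -0.03, and with covariates Psmb5 and Psmb7 had -0.01 and Psme1 -0.02. Between sham regions limma-voom gave 1.93 for Psmb8 and 0.65 for Psmb9. DESeq2 gave Psmb8 1.26, the fit without libraries standing apart 1.15 and that without cerebellum sham 48 1.38. For the regional difference at high loading, limma-voom gave Psmg4 0.29, and leaving out the same libraries gave Psmg1 0.31, Psmg4 0.38, Psmb5 0.24, Psmb7 0.23 and Psme2 0.27. The cause of these changes was not tested, and the covariates and the choice of libraries both used ribosomal transcripts.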
